A study of Caenorhabditis elegans with 18 samples.

Results

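The comparison described here is a difference of differences. It asks in which genes the effect of losing HIRA-1 in Caenorhabditis elegans was not the same in the last larval stage, L4, as in the adult. For each gene the log2 difference between hira-1(-) and N2 in adults was taken, the same difference at L4 was subtracted, and the result, called the interaction here, was tested. A positive interaction means that the mutant stood higher relative to N2 in adults than it did at L4. Of 16770 genes with enough counts to test, among 45461 listed, 8447 passed. The series holds 18 RNA samples of both genotypes at L1, L4 and adult, and 8 of them enter this contrast, 2 per group. N2 is the wild-type laboratory strain. The mutant strain MT23643 carries hira-1(gk835598), which the series design text calls a null. All animals were grown at 20°C on E. coli OP50, and poly(A) RNA of whole animals was sequenced from paired ends. The labels give the stage but no hours, no number of animals and no sex. A difference in age within a stage between the genotypes therefore cannot be told apart from a difference of genotype. Each group has 1 more labelled sample, which is not analysed here. Nothing in the labels ties a replicate to its own culture, and the p-values then reflect the scatter among these libraries alone, part or all of which may be technical.

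HIRA is a histone chaperone that places the histone variant H3.3 into chromatin outside of DNA replication. In a C. elegans hermaphrodite the germ line makes sperm during L4 and then switches for good to oocytes, so the transcripts of sperm, oocytes and dividing germ cells follow the animal's age closely. The epidermis lays down a new cuticle at each molt, in waves of collagen, protease and hedgehog-related gene transcription, and the molt from L4 to adult is the last. Both programs run in the interval that the comparison spans.

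The genotype effect differed between the stages in both directions and reversed in many genes. The interaction was positive for 3467 genes (20.7% of those tested) and negative for 4980 (29.7%), by edgeR's quasi-likelihood test with an adjusted p under 0.05. Among all 8447 the median size was 0.81 on the log2 scale, with 3508 genes differing at least 2-fold and 1569 at least 4-fold. In 1362 genes (8.12%) hira-1(-) was higher at L4 and lower in adults, with the effect at each stage and the interaction all past the threshold. In 867 genes (5.17%) it was lower at L4 and higher in adults. The second set moved further, with a median interaction of 2.00 against -0.94 in the first. When each effect had to pass a 1.5-fold minimum, 169 genes (1.01%) remained in the first set and 244 (1.45%) in the second.

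The reversals rest on the effects at each stage, which compare different libraries. Both effects come from the same fit of all libraries and share its scaling, filter and estimate of spread. They are therefore not independent of each other. At L4, 5951 genes (35.5%) were higher in hira-1(-) and 3782 (22.6%) lower, and in adults 4790 (28.6%) were higher and 4445 (26.5%) lower. These splits moved with the scaling. At L4, 61.1% of the calls were higher with TMM scaling, 72.3% with library totals, 72.5% on the deposited log2 FPKM values and 50.8% with a minimum of 1 CPM in 2 libraries. In adults 51.9% were higher with TMM, 75.6% with library totals, 75.3% on log2 FPKM and 44.8% with RLE scaling. The split of the interaction moved less, with 59.0% of calls negative with TMM, 52.4% with library totals and 63.2% with RLE. The median interaction of all genes was -0.07, 0.00 and -0.12 under these 3 scalings. Small reversals therefore depended on the scaling: 545 of the 1362 genes and 614 of the 867 held with TMM, RLE and library totals alike. Of the reversals past the 1.5-fold minimum, 129 of 169 and 198 of 244 held with library totals too.

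The interaction can also be read as the difference between how far each genotype moved from L4 to adult. In N2, 6408 genes (38.2%) rose from L4 to adult and 7271 (43.4%) fell. In hira-1(-), 6030 (36%) rose and 6443 (38.4%) fell. Both stage comparisons share their libraries with the interaction, so their values are given beside it only as a description. Of the 867 genes lower at L4 and higher in adults, 850 fell from L4 to adult in N2 (median log2 change -3.64) and 694 fell in hira-1(-) (median -1.42). Their median levels were 33.2 CPM (estimated counts scaled to a common library size, with TMM) in N2 L4, 20.3 in hira-1(-) L4, 2.27 in N2 adults and 6.50 in hira-1(-) adults. Of the 1362 genes higher at L4 and lower in adults, 960 rose from L4 to adult in N2 and 281 fell. A full crossing, in which a gene rose with stage in one genotype and fell in the other, was less common. It was called for 195 genes that rose in N2 and fell in hira-1(-) (1.16%) and for 174 with the opposite course (1.04%).

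**Figure D1:**
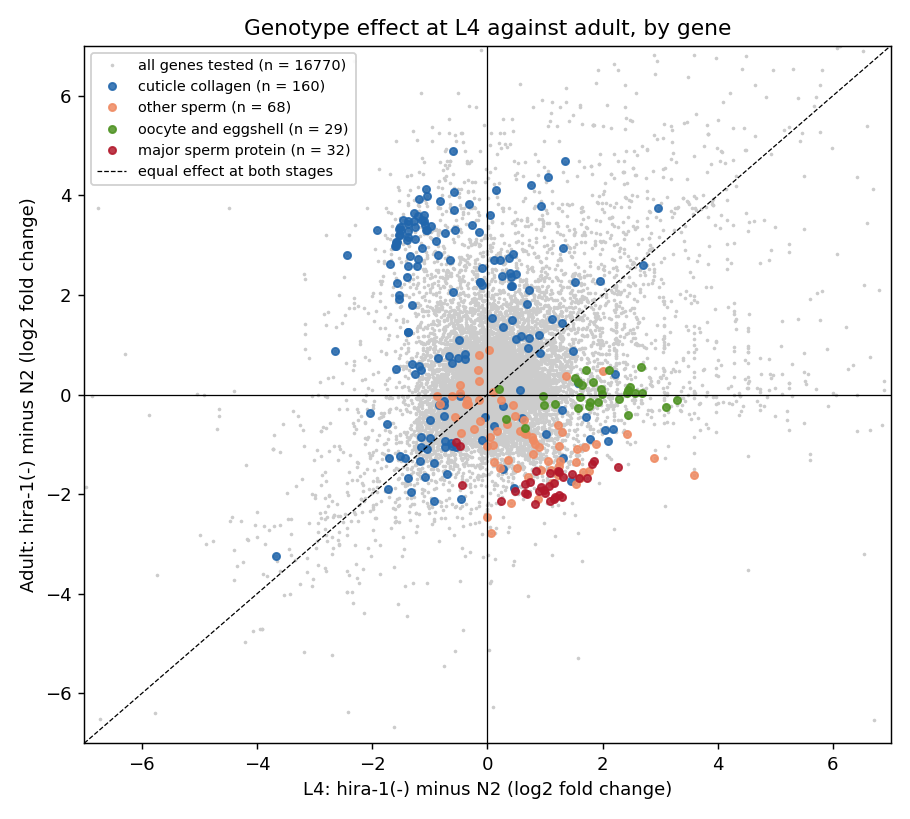
Each point is a gene, with the log2 difference between hira-1(-) and N2 at L4 on the x axis and in adults on the y axis. Colours mark 4 of the gene lists, the dashed line marks an equal effect at both stages, and 85 genes lie outside the axes. Major sperm protein genes sit at lower right, most cuticle collagens at upper left, and oocyte genes to the right near 0 on the y axis.

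The libraries held 26010307 to 31174599 estimated counts. The transcript of hira-1 (K10D2.1) was present in every library, at 37.4 and 32.9 CPM in N2 L4, 23.7 and 25.3 in hira-1(-) L4, 108 and 109 in N2 adults, and 40.7 and 40.0 in hira-1(-) adults. The genotypes did not overlap at either stage, and the deficit was larger in adults (interaction -0.91, SE 0.10, adjusted p = 5.6e-06). What gk835598 changes in the transcript is not given in the labels. Calls were more frequent in abundant genes: split by mean CPM into 3 sets of 5590, 69.5% of the highest set passed the interaction test, 55.6% of the middle set and 26.1% of the lowest. In whole-animal RNA, fewer cells of a type and less RNA per cell cannot be told apart, and this holds for every tissue list below.

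Sperm genes reversed as a group. Of 32 major sperm protein genes tested, which encode the protein that drives the crawling of nematode sperm, 29 had a negative interaction and none a positive one (median -2.91), beside 29.7% negative and 20.7% positive among all genes. The same 29 were higher in hira-1(-) at L4 and lower in adults, against 8.12% of all genes. Their effects ranged from 0.24 to 2.27 at L4 and from -2.19 to -1.34 in adults, on the log2 scale. The count was also 29 with RLE scaling and with library totals, 23 passed the 1.5-fold minimum, and 26 to 29 were called when any 1 library was left out. The 3 exceptions, msp-42, msp-71 and msp-74, had lower values in hira-1(-) at L4 as well, at -0.48, -0.54 and -0.44, and -1.03, -0.95 and -1.82 in adults.

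The libraries show the crossing directly. For msp-19 (F36H12.7) the level was 73.2 and 66.1 CPM in N2 L4, 142.8 and 134.0 in hira-1(-) L4, 117 and 124 in N2 adults, and 31.8 and 31.9 in hira-1(-) adults. The highest group at L4 was the mutant and the highest in adults was N2, with no overlap at either stage (interaction -2.91, SE 0.09, adjusted p = 5.8e-11). For msp-76 (ZK1251.6) the order was the same, with 42.97 and 36.98 CPM in N2 L4, 88.4 and 92.2 in hira-1(-) L4, 82.7 and 81.0 in N2 adults, and 19.3 and 20.2 in hira-1(-) adults (interaction -3.23, SE 0.10, adjusted p = 8.5e-11). Major sperm protein genes are near-identical copies, and the division of reads among them is uncertain. Summed over the list, which that division does not touch, the level was 1290 and 1130 CPM in N2 L4, 2470 and 2510 in hira-1(-) L4, 1820 and 2000 in N2 adults and 522 and 561 in hira-1(-) adults. The sum was higher in adults than at L4 in N2, and in hira-1(-) adults it was lower than in any other library. By gene, 24 of the 32 (75%, beside 1.16% of all genes) rose in N2 and fell in hira-1(-).

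Of 68 other sperm genes, 48 (70.6%) had a negative and 3 (4.41%) a positive interaction, beside 29.7% and 20.7% of all genes. The median was -1.65, and -1.58 with 2 genes that have a group at 0 set at a floor of 3 counts per library. The L4 to adult reversal was called for 34 of the 68 (50%, beside 8.12% of all genes) and the opposite for none, and 33 to 35 were called under the 3 scalings. Among the reversed genes were 9 of the small nspd peptides, the sperm-specific family members msd-4 and ssp-10, the sperm phosphatase gene gsp-4, and spe-11, whose product the sperm delivers to the embryo. The gene msd-4 (C35D10.11) was at 49.9 and 44.9 CPM in N2 L4, 103.1 and 100.8 in hira-1(-) L4, 67.3 and 73.6 in N2 adults, and 23.8 and 25.7 in hira-1(-) adults (interaction -2.62, SE 0.10, adjusted p = 4.2e-10). The gene ssp-10 (K07F5.9) was at 23.9 and 19.5, 61.6 and 65.0, 33.2 and 37.2, and 13.6 and 14.1 CPM in the same groups (interaction -2.89, SE 0.14, adjusted p = 3.4e-09). In both genes each genotype pair was separate and the order turned over between the stages.

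In 3 sperm genes the interaction was positive. The gene spe-44, which encodes a transcription factor that turns on sperm genes in spermatocytes, had an effect of -0.83 at L4 and -0.19 in adults (interaction 0.64, adjusted p = 0.0012), and fer-1, needed for sperm organelle fusion, -0.88 and -0.03 (interaction 0.85, adjusted p = 0.0033). The third, spe-5, encodes a subunit of the vacuolar ATPase (interaction 0.88, adjusted p = 1.1e-04). The gene fog-3 (C03C11.2), which commits germ cells to the sperm fate and was chosen for mention after its values were seen, behaved like spe-44. It was at 9.004 and 10.66 CPM in N2 L4, 3.18 and 2.84 in hira-1(-) L4, 1.21 and 1.58 in N2 adults, and 1.11 and 1.17 in hira-1(-) adults (interaction 1.41, SE 0.30, adjusted p = 0.0017). At L4, then, spe-44 and fog-3 were lower in hira-1(-) than in N2, while the major sperm protein sum was higher.

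**Figure D2:**
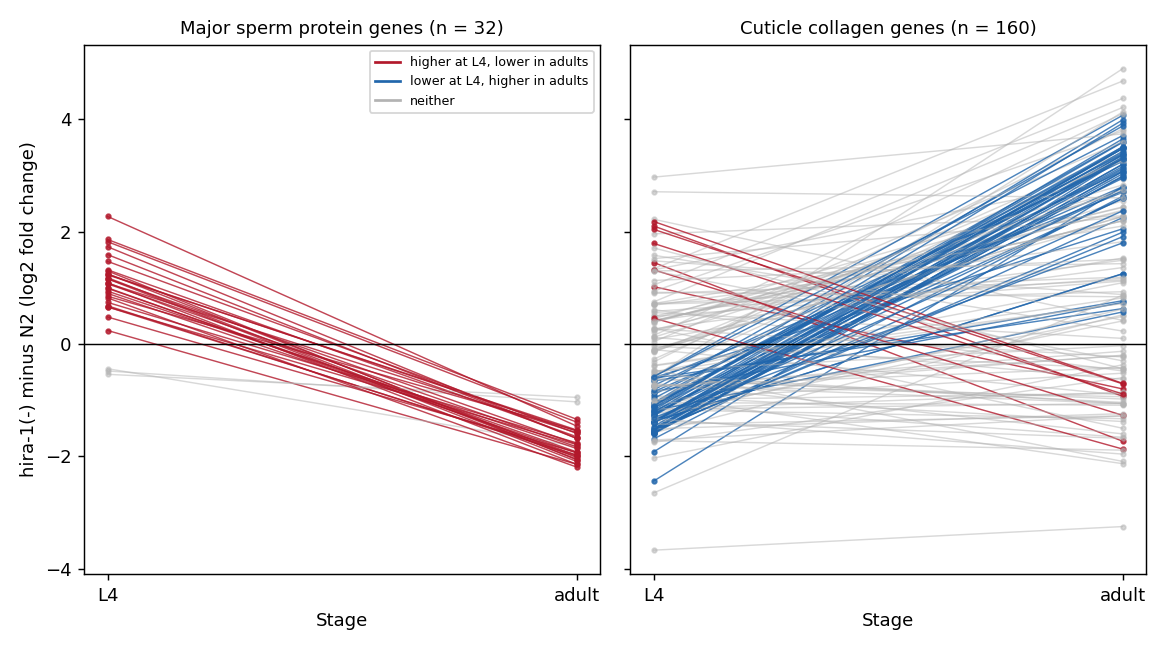
Log2 difference between hira-1(-) and N2 at L4 and in adults, 1 line per gene, for 32 major sperm protein genes (left) and 160 cuticle collagen genes (right). Red lines mark the 29 sperm protein and 8 collagen genes that were higher at L4 and lower in adults, and blue lines the 57 collagen genes with the opposite reversal.

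Oocyte genes showed another pattern: a large excess at L4 that adults did not show as a group. Of 29 oocyte, eggshell and maternal RNA-binding genes, 28 (96.6%, beside 29.7% of all genes) had a negative interaction and none a positive one (median -1.85). All 29 were higher in hira-1(-) at L4 (median 1.83), beside 35.5% of all genes. In adults 7 were higher and 7 lower, beside 28.6% and 26.5%. The adult median was 0.02, and -0.04 with RLE scaling and 0.23 with library totals. In both genotypes all 29 rose from L4 to adult, with medians of 4.34 in N2 and 2.40 in hira-1(-). The list sum was 1130 and 914 CPM in N2 L4, against 3420 and 3570 in hira-1(-) L4, against 17300 and 18000 in N2 adults and 17800 and 18500 in hira-1(-) adults. The exception was the kinase gene mbk-2, which acts when the oocyte becomes an embryo, at 0.21 at L4 and 0.11 in adults.

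The Pumilio-family gene puf-5 (F54C9.8), needed for oocyte formation, was at 17.9 and 16.2 CPM in N2 L4, against 168 and 167 in hira-1(-) L4. In adults it was at 939 and 961 CPM in N2 and 898 and 874 in hira-1(-) (interaction -3.40, SE 0.08, adjusted p = 8.0e-12). Beside its L4 excess, the adult effect of -0.10 did not pass (adjusted p = 0.13). The zinc-finger gene oma-2 (ZC513.6), which acts in oocyte maturation, was at 13.9 and 11.8 CPM in N2 L4, 62.0 and 64.4 in hira-1(-) L4, 617 and 620 in N2 adults, and 585 and 576 in hira-1(-) adults (interaction -2.39, SE 0.09, adjusted p = 6.7e-10). The chondroitin proteoglycan gene cpg-2 (B0280.5), whose product is part of the eggshell, was at 78.4 and 64.7, 455 and 468, 2193 and 2286, and 2283 and 2320 CPM in the same order (interaction -2.65, SE 0.11, adjusted p = 1.1e-09). In these 3 genes the hira-1(-) L4 libraries lay between N2 L4 and the adults, and the adult genotypes were close or overlapped.

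A reversal was called for 7 members (24.1%, beside 8.12% of all genes), namely meg-1, cpg-3, egg-3, egg-2, chs-1, perm-2 and perm-4. However, this number was 2 with library totals, 10 with RLE scaling and 0 with the 1.5-fold minimum. It was 12 and 11 without N2 L4 replicate 1 and 2 and 4 without N2 adult replicate 2. The adult counts moved as well, to 15 higher and 2 lower with library totals, 2 higher without N2 adult replicate 1 or hira-1(-) adult replicate 2, and 12 lower without either N2 L4 library. The largest adult deficits were those of the eggshell permeability genes perm-2 (-0.68) and perm-4 (-0.50). The gene perm-2 (C44B12.1), described per library because of that deficit, was at 37.2 and 26.9 CPM in N2 L4, 51.7 and 49.3 in hira-1(-) L4, 735 and 734 in N2 adults, and 456 and 463 in hira-1(-) adults (interaction -1.33, SE 0.17, adjusted p = 3.4e-04). Its adult genotypes were well apart, unlike those of puf-5 or cpg-2.

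Other germ line and cell cycle genes also had mostly negative interactions, with smaller medians. Of 44 other germ line genes, 38 (86.4%, beside 29.7% of all genes) had a negative and 2 a positive interaction (median -0.56). At L4, 40 were higher in hira-1(-) and 1 lower (median 0.68), beside 35.5% and 22.6% of all genes. In adults 14 were higher and 6 lower (median 0.06), beside 28.6% and 26.5%. With library totals the adult calls were 34 higher and 1 lower (median 0.27), so most members were then higher in adults too. The gene hrde-1 (C16C10.3), a nuclear Argonaute that carries inherited silencing, was at 160 and 152 CPM in N2 L4, against 372 and 377 in hira-1(-) L4, and at 702 and 715 in N2 adults and 751 and 761 in hira-1(-) adults (interaction -1.17, SE 0.07, adjusted p = 4.5e-08). The gene nos-2 (ZK1127.1), a Nanos relative that acts in primordial germ cells, was at 2.81 and 2.28 CPM in N2 L4, 14.6 and 15.2 in hira-1(-) L4, 146 and 141 in N2 adults, and 143.3 and 131.2 in hira-1(-) adults (interaction -2.61, SE 0.12, adjusted p = 3.6e-09). Both rose with stage in both genotypes.

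Of 45 cell cycle and DNA replication genes, 43 (95.6%, beside 29.7% of all genes) had a negative interaction and none a positive one (median -0.75). All 45 were higher in hira-1(-) at L4, beside 35.5% of all genes. In adults 5 were higher and 17 lower (median -0.06), and with library totals 23 higher and 1 lower (median 0.15). The 17 made up 37.8% of the list, while 8.12% of all genes reversed in this direction. Those 17 count as reversals with TMM, but the count was 1 with library totals, 22 with RLE, 11 without N2 adult replicate 2, 7 without hira-1(-) adult replicate 2 and 0 with the 1.5-fold minimum. The mitotic cyclin gene cyb-2.1 (Y43E12A.1) was at 10.6 and 10.1 CPM in N2 L4, 40.9 and 42.3 in hira-1(-) L4, 201 and 193 in N2 adults, and 159 and 154 in hira-1(-) adults. Its effect changed from 2.00 at L4 to -0.33 in adults (interaction -2.33, SE 0.08, adjusted p = 1.8e-10). The cyclin gene cyb-3 (T06E6.2) was at 63.8 and 62.6, 149 and 155, 827 and 838, and 851 and 814 CPM in the same groups, so that its adult libraries overlapped (interaction -1.27, SE 0.07, adjusted p = 2.5e-08).

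**Figure D3:**
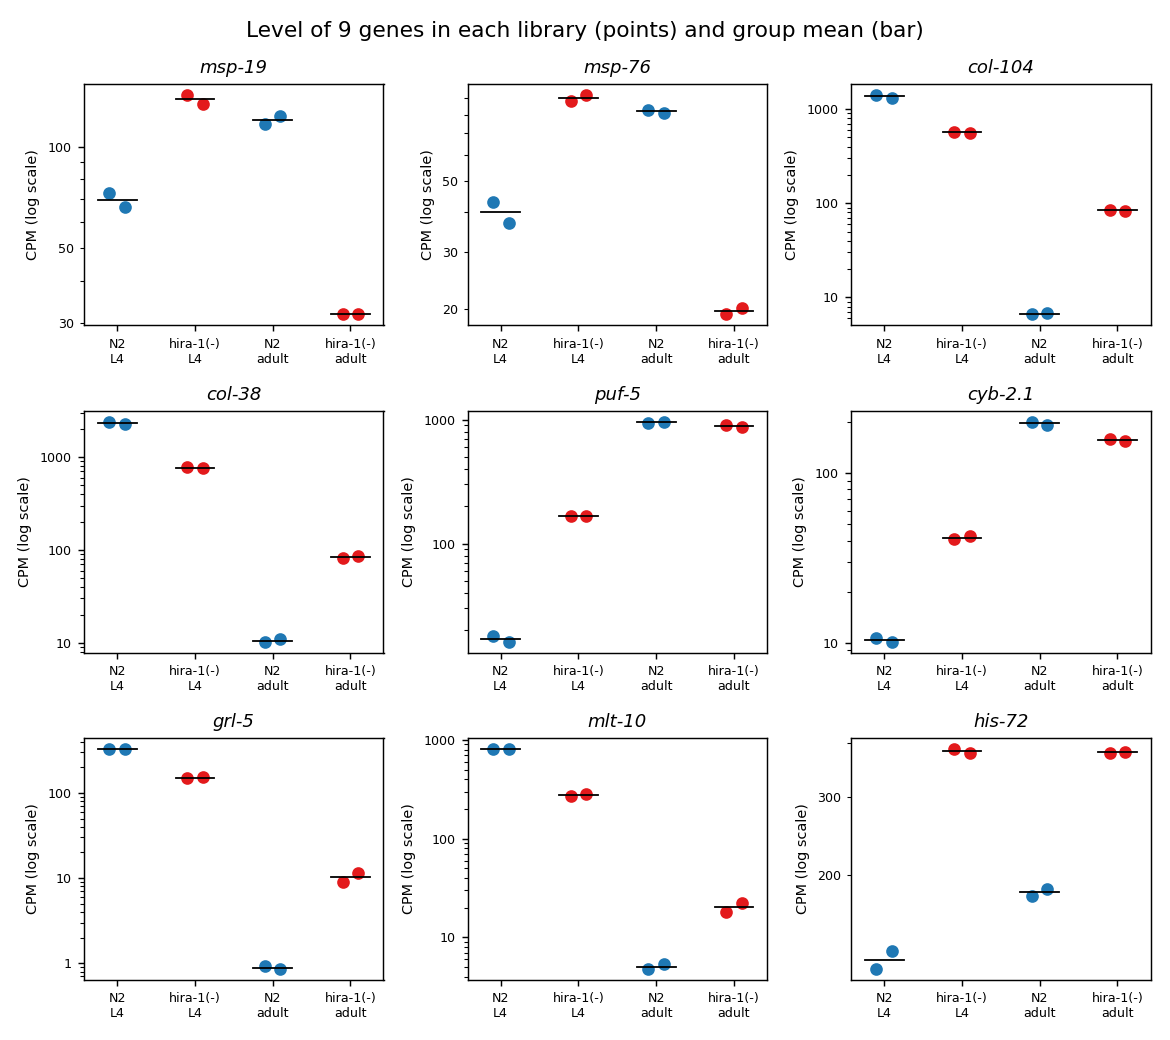
Level in CPM (log axis) of 9 genes in each of the 8 libraries, with N2 in blue, hira-1(-) in red and a bar at each group mean. The sperm genes msp-19 and msp-76 turn over between stages, the oocyte gene puf-5 and the cyclin gene cyb-2.1 differ mainly at L4, and the collagens col-104 and col-38, grl-5 and mlt-10 fall with stage by less in hira-1(-) than in N2.

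Cuticle collagens gave the largest set of reversals in the opposite direction. Of 160 tested of 178 collagen genes, 95 (59.4%) had a positive and 14 (8.75%) a negative interaction, beside 20.7% and 29.7% of all genes. The median was 1.85, and 1.77 with 3 members at their bound. Lower in hira-1(-) at L4 and higher in adults were 57 (35.6%), against 5.17% of all genes. The count was also 57 with RLE scaling and with library totals, and 48 passed the 1.5-fold minimum. All 57 fell from L4 to adult in N2 (median log2 change -7.14), and 53 fell in hira-1(-) (median -2.76). Their median level was 616 CPM in N2 L4, 268 in hira-1(-) L4, 4.12 in N2 adults and 35.7 in hira-1(-) adults. In all 57 the hira-1(-) adult mean was below that of N2 L4 animals.

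The gene col-104 (F58F6.1) was at 1422 and 1301 CPM in N2 L4, 571 and 556 in hira-1(-) L4, 6.60 and 6.82 in N2 adults, and 85.3 and 82.9 in hira-1(-) adults. Its effect went from -1.27 at L4 to 3.65 in adults (interaction 4.92, SE 0.10, adjusted p = 1.9e-12). For col-38 (F54C9.4) the levels were 2387 and 2272, 776 and 757, 10.3 and 10.9, and 82.5 and 85.6 CPM in the same groups (interaction 4.59, SE 0.09, adjusted p = 1.9e-12). In both genes the groups were far apart in relation to the spread of their replicates, and the fall with stage was shallower in the mutant. Collagens named for the body shape of their mutants reversed too and were chosen for mention after their values were seen. The gene dpy-13 (F30B5.1; dumpy) was at 2843 and 2633 CPM in N2 L4, 1028 and 1079 in hira-1(-) L4, 8.56 and 9.76 in N2 adults, and 94.95 and 103.1 in hira-1(-) adults (interaction 4.81, SE 0.11, adjusted p = 5.0e-12). Of the same kind were the roller gene rol-6 (T01B7.7; interaction 4.70), the blister gene bli-1 (C09G5.6; 4.36) and the squat gene sqt-3 (F23H12.4; 4.10).

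A smaller group of 8 collagens (5% of those tested, beside 8.12% of all genes) did the reverse. These were col-8, col-42, col-80, col-98, col-101, col-103, col-142 and col-143, which were higher in hira-1(-) at L4 and lower in adults. All 8 rose from L4 to adult in both genotypes, with median log2 changes of 5.78 in N2 and 3.57 in hira-1(-). The gene col-143 (T15B7.3) was at 1.30 and 1.03 CPM in N2 L4, 4.16 and 3.93 in hira-1(-) L4, 1351 and 1274 in N2 adults, and 735 and 680 in hira-1(-) adults (interaction -2.68, SE 0.16, adjusted p = 3.2e-08). The gene col-98 (F14F7.1) was at 52.4 and 78.3, 277 and 285, 1692 and 1504, and 835 and 838 CPM in the same groups (interaction -3.04, SE 0.25, adjusted p = 1.7e-04). The count of this class was 9 with RLE and 7 with library totals. The adult collagen gene col-19 (ZK1193.1), a common reporter of adult cuticle formation, did not belong to it. It was lower in hira-1(-) at both stages, at 146.2 and 102.6 against 58.1 and 40.8 CPM at L4 and at 2685 and 2510 against 664 and 671 in adults, and its interaction did not pass (-0.63, SE 0.32, adjusted p = 0.17, but adjusted p = 0.029 without hira-1(-) L4 replicate 2).

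The 2 collagen groups had opposite courses with stage. A smaller change in the mutant follows, in both, from picking the groups by the sign of the interaction. It is therefore not a separate result. Summed over all 160 genes the level did not reverse. It was 69300 and 62500 CPM in N2 L4 against 36300 and 35900 in hira-1(-) L4, and 63900 and 58000 in N2 adults against 33200 and 32700 in hira-1(-) adults. The 6 annular furrow collagens, which mark the circumferential grooves of the cuticle, were on a different course. At L4, 4 were higher in hira-1(-), beside 35.5% of all genes, and in adults all 6, beside 28.6%. The interaction was positive for 4 (66.7%, beside 20.7% of all genes) and negative for none, beside 29.7% (median 1.53). The L4 count was 0 without either hira-1(-) L4 library or either N2 adult library and 2 without N2 L4 replicate 1 or either hira-1(-) adult library, and the interaction count was 0 without N2 adult replicate 1 and 1 without replicate 2. For dpy-7 (F46C8.6) the L4 libraries were at 92.5 and 135 CPM in N2 and 158 and 153 in hira-1(-), and the adult libraries at 0.752 and 0.969 against 6.71 and 5.65 (interaction 2.38, SE 0.53, adjusted p = 0.014). Leaving out either N2 adult library ended this call (adjusted p = 0.078 without replicate 1 and 0.065 without replicate 2). The calls of dpy-2 (1.95) and dpy-3 (1.94) were also lost without N2 adult replicate 1 (adjusted p = 0.061 and 0.07), and that of dpy-2 without N2 adult replicate 2 (adjusted p = 0.061).

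**Figure D4:**
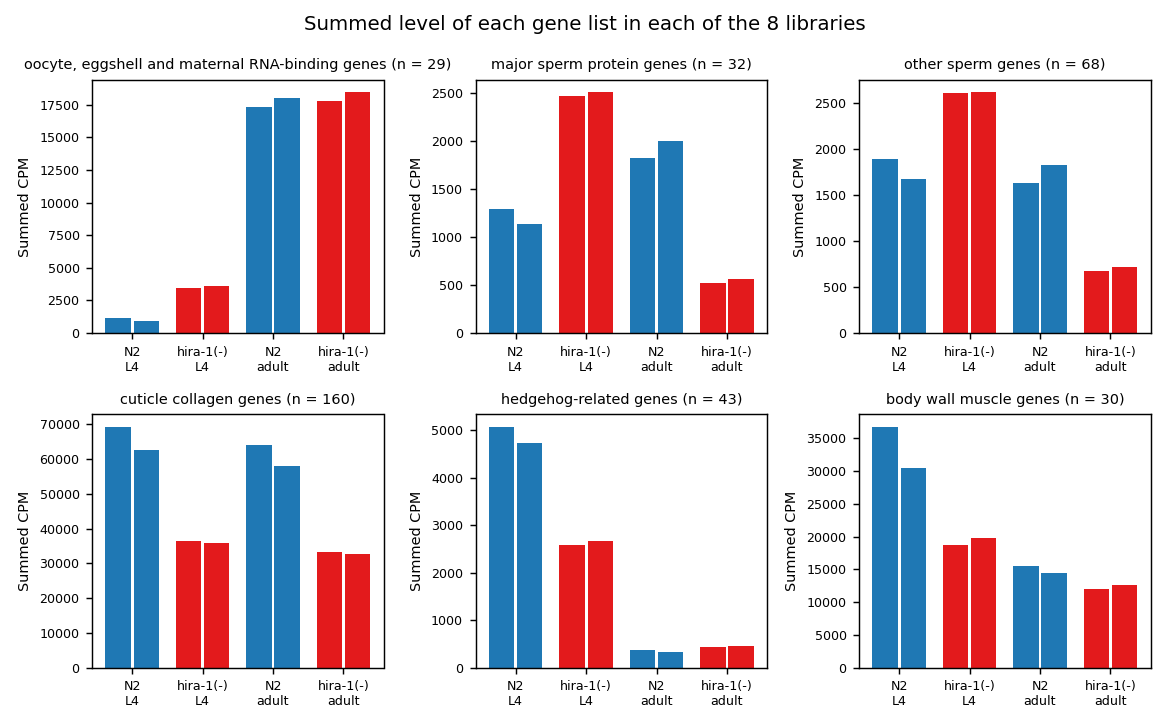
Summed CPM of 6 gene lists in each library (a bar per library, replicate 1 then 2; N2 in blue, hira-1(-) in red; axes start at 0). The sperm sums are highest in hira-1(-) at L4 and lowest in hira-1(-) adults, the oocyte sums differ by genotype at L4, and the collagen sums are lower in hira-1(-) at both stages although 57 members reversed.

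Hedgehog-related genes, which in this animal encode secreted proteins made mostly by cuticle-forming cells, moved with the larval collagens. Of 43 tested of 61, 28 (65.1%, beside 20.7% of all genes) had a positive and 5 a negative interaction (median 2.06). A reversal from lower at L4 to higher in adults was called for 15 (34.9%, beside 5.17%), with 16 under both other scalings and 10 with the 1.5-fold minimum. The gene grl-5 (Y47D7A.5) was at 326 and 329 CPM in N2 L4, 150 and 154 in hira-1(-) L4, 0.919 and 0.861 in N2 adults, and 9.05 and 11.3 in hira-1(-) adults (interaction 4.62, SE 0.16, adjusted p = 2.8e-10). The gene grd-2 (F46B3.5) was at 73.98 and 80.31, 34.3 and 36.3, 0.251 and 0.215, and 2.63 and 2.49 CPM (interaction 4.57, SE 0.24, adjusted p = 1.1e-08). All 15 fell with stage in N2 and 14 in hira-1(-), and in each the hira-1(-) adult mean stayed below that of N2 L4. The gene wrt-8 (C29F3.2) was higher in hira-1(-) at both stages, at 19.5 and 16.4 against 35.6 and 33.2 CPM at L4 and at 0.0835 and 0.0718 against 5.12 and 4.79 in adults (interaction 4.98, SE 0.36, adjusted p = 2.4e-07).

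Not all hedgehog-related genes took that course. The genes grd-3, grd-10 and grd-13 (6.98% of the list, beside 8.12% of all genes) were higher in hira-1(-) at L4 and lower in adults. The gene grd-3 (W05E7.1) was at 6.70 and 9.01 CPM in N2 L4, 17.0 and 18.1 in hira-1(-) L4, 159 and 138 in N2 adults, and 65.1 and 61.3 in hira-1(-) adults (interaction -2.39, SE 0.16, adjusted p = 1.6e-06). Its level rose with stage in both genotypes, as did those of the 8 collagens above. Of 27 patched and patched-related genes, relatives of the hedgehog receptor, 17 (63%) had a positive and 4 (14.8%) a negative interaction (median 1.27). The shares among all genes were 20.7% and 29.7%. From lower to higher 10 reversed (37%, beside 5.17% of all genes), 2 of them past the 1.5-fold minimum. The gene ptr-18 (Y38F1A.3) was at 218 and 203 CPM in N2 L4, 119.2 and 126.8 in hira-1(-) L4, 2.46 and 2.37 in N2 adults, and 10.4 and 11.5 in hira-1(-) adults (interaction 2.96, SE 0.12, adjusted p = 1.3e-09).

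Molting genes shared this direction of the interaction, without a deficit at L4 in the list as a whole. Of 58 molting regulator and apical matrix genes, 31 (53.4%, beside 20.7% of all genes) had a positive and 6 (10.3%, beside 29.7%) a negative interaction (median 1.23). At L4, 21 were higher in hira-1(-) and 21 lower (median 0.13), beside 35.5% and 22.6% of all genes. In adults 34 were higher and 2 lower (median 1.07), beside 28.6% and 26.5%. Among them, 9 were higher at both stages with a positive interaction. From lower at L4 to higher in adults 12 reversed (20.7%, beside 5.17%), 2 of them past the 1.5-fold minimum, while none did the opposite. The gene mlt-10 (C09E8.3), required for shedding the old cuticle, was at 810 and 802 CPM in N2 L4, 270 and 283 in hira-1(-) L4, 4.80 and 5.31 in N2 adults, and 18.1 and 22.2 in hira-1(-) adults (interaction 3.54, SE 0.13, adjusted p = 3.5e-10). The gene acn-1 (C42D8.5), which encodes a relative of angiotensin-converting enzyme needed for molting, was at 336 and 352 CPM in N2 L4, 287 and 286 in hira-1(-) L4, 6.39 and 6.39 in N2 adults and 20.5 and 21.6 in hira-1(-) adults. Its interaction was 1.99 (SE 0.09, adjusted p = 1.7e-09). Its difference at L4 was small (-0.26) and that in adults larger (1.72). Of 35 astacin metalloprotease genes, some of which digest the old cuticle, 16 (45.7%) had a positive and 4 (11.4%) a negative interaction (median 1.02). The shares among all genes were 20.7% and 29.7%. From lower to higher 8 reversed (22.9%, beside 5.17% of all genes), 2 of them past the 1.5-fold minimum. The gene nas-38 (F57C12.1, interaction 3.41, SE 0.19, adjusted p = 1.6e-08) was among those 2.

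Of 14 heterochronic genes, which time the larval stages, 7 had a positive and 2 a negative interaction (median 0.25), and the second count was 1 when any library other than hira-1(-) L4 replicate 1 was left out. The shares were 50% positive and 14.3% negative, beside 20.7% and 29.7% of all genes. The period-related gene lin-42 (F47F6.1), whose transcript cycles with the molts, and the microRNA Argonaute gene alg-1 (F48F7.1) reversed from lower to higher. The gene lin-42 was at 354 and 339 CPM in N2 L4, 190 and 221 in hira-1(-) L4, 3.51 and 3.95 in N2 adults, and 10.5 and 16.4 in hira-1(-) adults (interaction 2.60, SE 0.31, adjusted p = 1.0e-03). Each genotype pair was separate, with the 2 hira-1(-) adult libraries further apart than other replicates. The gene lin-41, on both this and the oocyte list, went the other way (2.11 at L4 and 0.49 in adults; interaction -1.63).

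The abu and pqn genes, listed by name and not by tissue, encode repeat proteins, some of which belong to the pharyngeal cuticle. They held several of the largest single reversals. Of 65 tested, 30 (46.2%, beside 20.7% of all genes) had a positive and 9 a negative interaction (median 0.88, and 0.79 with 3 members at their bound). From lower to higher 12 reversed (18.5%, beside 5.17%) and from higher to lower 2 (3.08%, beside 8.12%). The 12 were 19 without N2 L4 replicate 2 and 7 without either N2 adult library or hira-1(-) adult replicate 2, and 2 passed the 1.5-fold minimum. The gene abu-13 (F57B9.9) was at 273 and 255 CPM in N2 L4, 104.6 and 112.1 in hira-1(-) L4, 1.55 and 1.79 in N2 adults, and 7.75 and 9.12 in hira-1(-) adults (interaction 3.61, SE 0.15, adjusted p = 1.1e-09). The larger differences came with a wide spread between the N2 L4 libraries. The gene abu-14 (ZK1067.7) was at 294 and 170 CPM in N2 L4, 93.1 and 83.7 in hira-1(-) L4, 0.877 and 1.36 in N2 adults, and 21.6 and 26.2 in hira-1(-) adults (interaction 5.78, SE 0.67, adjusted p = 0.0025). The genes idpc-2 (F41E6.11), idpc-3 (T06E4.12) and idpc-6 (T06E4.9), which the named-gene rule picked for their size, had interactions of 6.32, 6.35 and 5.72 with SEs of 0.61 to 0.70, and in each N2 L4 replicate 1 stood above replicate 2.

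Body wall muscle genes were lower in hira-1(-) at L4 and divided in adults. Of 30, 28 were lower at L4 and none higher (median -0.77), beside 22.6% and 35.5% of all genes. In adults 7 were higher and 16 lower, beside 28.6% and 26.5% (the median was -0.21, or 0.00 with library totals). The interaction was positive for 20 (66.7%, beside 20.7% of all genes) and negative for none (median 0.48). A reversal was called for 7 (23.3%, beside 5.17% of all genes), namely myo-3, unc-15, unc-22, unc-89, ttn-1, deb-1 and tni-1. Without N2 adult replicate 2 this count, like that of members higher in adults, was 2, without hira-1(-) adult replicate 2 it was 4, and 1 member passed the 1.5-fold minimum. The myosin heavy chain gene myo-3 (K12F2.1) was at 562 and 449 CPM in N2 L4, 246 and 283 in hira-1(-) L4, 59.7 and 51.7 in N2 adults, and 99.9 and 113 in hira-1(-) adults (interaction 1.87, SE 0.19, adjusted p = 2.7e-04). The myosin light chain gene mlc-1 (C36E6.3) was at 1095 and 1012, 552 and 514, 615 and 541, and 299 and 305 CPM in the same groups, lower in the mutant at both stages, and its interaction did not pass (0.05, adjusted p = 0.72). For the main body wall myosin gene unc-54 (F11C3.3) the replicates spread widely, from 2876 to 5128 CPM in N2 L4, and the interaction of 1.83 (SE 0.51, adjusted p = 0.041) was lost when any library other than N2 L4 replicate 2 or hira-1(-) L4 replicate 2 was left out (adjusted p = 0.06 to 0.13).

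Transcript length moved with this division. The 6 muscle genes with an effective length of at least 5000 bases had a median interaction of 1.59 (-0.74 at L4 and 0.73 in adults), and the 18 under 2000 bases one of 0.34 (-0.80 at L4 and -0.45 in adults). Over all genes with a length, the median interaction was -0.12 in 6005 genes under 1000 bases, -0.08 in 6765 of 1000 to 2000, -0.04 in 3042 of 2000 to 5000 and 0.19 in 291 of at least 5000. The part of length in the muscle result was not tested. The major sperm protein genes were short, at 205 to 493 bases, and the 150 collagens with a length ran from 812 to 3040 bases.

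Nervous system and intestinal genes had mostly positive interactions among those called. Of 22 pan-neuronal genes, 10 (45.5%, beside 20.7% of all genes) had a positive interaction and none a negative one (median 0.34). The dense-core vesicle gene ida-1 (B0244.2) was at 69.98 and 60.94 CPM in N2 L4, 46.3 and 47.4 in hira-1(-) L4, 16.45 and 15 in N2 adults, and 29.8 and 26.2 in hira-1(-) adults (interaction 1.32, SE 0.12, adjusted p = 1.9e-06). Of 30 FMRFamide-like peptide genes, 11 (36.7%, beside 20.7% of all genes) had a positive interaction and none a negative one (median 0.47), with no reversal called. That count was 6 without either hira-1(-) L4 library and 5 without N2 adult replicate 2 or hira-1(-) adult replicate 1, and 3 reversals were called without N2 adult replicate 1. Of 19 intestinal genes, 9 had a positive (15 without N2 L4 replicate 1) and 2 a negative interaction (0 without N2 L4 replicate 1, N2 adult replicate 1 or hira-1(-) adult replicate 1; median 0.44), and the gut cathepsin B-like proteases gave its largest values. The intestinal shares were 47.4% positive and 10.5% negative, beside 20.7% and 29.7% of all genes. The gene cpr-1 (C52E4.1) was at 433 and 521 CPM in N2 L4, 1035 and 1044 in hira-1(-) L4, 127 and 122 in N2 adults, and 1042 and 1078 in hira-1(-) adults (interaction 1.96, SE 0.11, adjusted p = 1.6e-08). The level of cpr-1 fell with stage in N2 and stayed near its L4 value in hira-1(-) (log2 stage change 0.03). The gene cpr-5 (W07B8.5) was at 538 and 670, 632 and 675, 38.1 and 37.6, and 314 and 355 CPM, so its L4 libraries overlapped and its adult libraries were far apart (interaction 3.03, SE 0.15, adjusted p = 4.7e-07).

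Ribosomal protein genes differed slightly, and their calls changed with the scaling and when single libraries were left out. Of 77, 51 (66.2%, beside 29.7% of all genes) had a negative and 1 a positive interaction (median -0.28), and with library totals 21 and 2 (median -0.20). Without N2 L4 replicate 1 the negative count was 4, and without 5 other libraries in turn it lay between 19 and 31. In adults 66 were lower (median -0.32), beside 26.5% of all genes, and 20 with library totals (median -0.12). At L4, 1 was lower, but 58 without N2 L4 replicate 1, 6 without N2 L4 replicate 2 and 39 without N2 adult replicate 1. Leaving out a library also refits the scaling and spread of the others. With every library kept, the median interaction of all genes was -0.07. It was 0.01 without N2 L4 replicate 1, -0.01 without N2 L4 replicate 2 and 0.00 without N2 adult replicate 1. The part of scaling in these changes of calls was not tested. The gene rpl-11.1 (T22F3.4) was at 877 and 916 CPM in N2 L4, 977 and 959 in hira-1(-) L4, 1633 and 1748 in N2 adults and 1256 and 1297 in hira-1(-) adults (interaction -0.52, SE 0.08, adjusted p = 1.8e-04). Other members were near the threshold: the calls of rpl-7 (-0.26) and rps-3A (-0.23) were lost when any of 7 or all 8 libraries in turn were left out, respectively. The 6 vitellogenin genes, which encode yolk proteins made in the adult gut, were all lower in hira-1(-) at L4 and 5 were lower in adults (3 without hira-1(-) adult replicate 1). The interaction was positive for vit-3 (1.53) and vit-4 (0.91) and negative for vit-1 (-0.98), and the call of vit-4 was lost without N2 adult replicate 2 (adjusted p = 0.054) and that of vit-1 without N2 adult replicate 1 (adjusted p = 0.083). Among all genes 22.6% were lower at L4 and 26.5% in adults, and 20.7% had a positive and 29.7% a negative interaction. For vit-3 (F59D8.1) the levels were 511 and 353 CPM in N2 L4, 48.2 and 44.2 in hira-1(-) L4, 7149 and 6112 in N2 adults, and 1944 and 2162 in hira-1(-) adults.

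Several large families held both directions, in shares that are read beside 20.7% positive and 29.7% negative among all genes. Of 168 C-type lectin genes, 44 (26.2%) had a positive and 25 (14.9%) a negative interaction (median 0.32). Of 203 nuclear hormone receptor genes, 30 (14.8%) were positive and 19 (9.36%) negative (0.09). The first of these counts was 19 without hira-1(-) L4 replicate 2, N2 adult replicate 2 or hira-1(-) adult replicate 1, and the second 12 without N2 adult replicate 1. Of 64 cytochrome P450 genes 17 (26.6%) were positive and 7 (10.9%) negative (0.16). Of 105 UDP-glucuronosyltransferase and glutathione transferase genes, 21 (20%) were positive and 23 (21.9%) negative (0.02, and -0.03 with RLE). Of 280 F-box genes, 23 (8.21%) were positive and 41 (14.6%) negative (24 without N2 L4 replicate 1 and 25 without hira-1(-) L4 replicate 1), with a median of -0.10 that became 0.09 when 65 members with a group at 0 were set at their bound. Of 30 pals genes, 9 (30%) were positive and 1 (3.33%) negative (0.13). Of 22 heat shock chaperone genes 7 (31.8%) were positive, or 4 without hira-1(-) adult replicate 1, and 5 (22.7%) negative, or 3 without any of 4 libraries in turn (0.20). Of 62 fatty acid metabolism genes, 16 (25.8%) were positive and 29 (46.8%) negative (-0.22). Of 43 nuclear-encoded respiratory chain genes 5 (11.6%) were positive and 4 (9.3%) negative (-0.07, and 0.00 with library totals), counts that were 2 and 10 with RLE, with 1 to 3 positive without any 1 library of hira-1(-) and 2 negative without N2 L4 replicate 1. The genes clec-87, clec-88 and clec-91 were exceptions among the lectins in following the oocyte genes, and clec-87 (C25A1.8) was at 22.8 and 19.1 CPM in N2 L4, 156 and 147 in hira-1(-) L4, 993 and 979 in N2 adults, and 1131 and 1083 in hira-1(-) adults (interaction -2.69, SE 0.10, adjusted p = 5.3e-10).

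Adult hermaphrodites carry embryos, and a list of genes active in the early embryo was counted for that reason. Of 21 such genes, 14 were tested, with 4 positive (28.6%) and 3 negative (21.4%) interactions (median 0.85), shares near the 20.7% and 29.7% of all genes. In adults 8 of the 14 were higher in hira-1(-) and 1 lower (median 0.71), beside 28.6% and 26.5% of all genes. The adult count higher was 7 with RLE scaling and 12 with library totals. At L4, 3 were higher and 3 lower (median -0.06). Their summed level was 145 to 151 CPM over the 4 L4 libraries and 219 to 238 over the 4 adult libraries, with none of the 14 at 0 in all libraries. In N2, 6 of the 14 rose from L4 to adult and 6 fell, beside 38.2% and 43.4% of all genes. The list therefore does not mark embryos alone. The part of embryos in the adult differences was not tested.

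**Figure D5:**
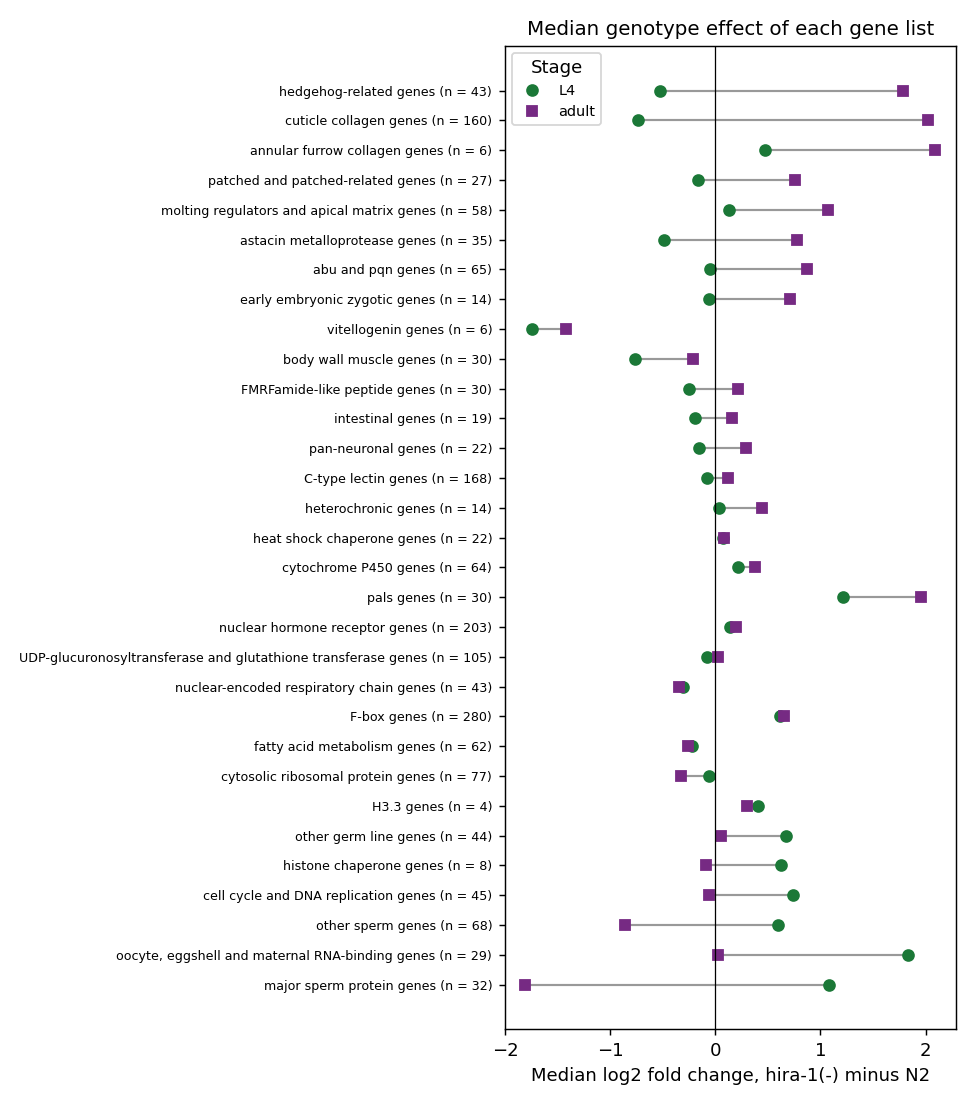
Median log2 difference between hira-1(-) and N2 of each gene list at L4 (green circles) and in adults (purple squares), ordered by median interaction from the largest at the top. The grey bar spans the change between stages. Hedgehog-related genes and collagens moved from below 0 to near 2, and major sperm protein genes from 1.08 to -1.81.

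Among the genes of the H3.3 pathway, the H3.3 genes did not move together. The gene his-72 (Y49E10.6), a broadly expressed source of H3.3, was at 122 and 134 CPM in N2 L4, 387 and 379 in hira-1(-) L4, 179 and 186 in N2 adults, and 380 and 380 in hira-1(-) adults. It was higher in the mutant at both stages, by less in adults (interaction -0.52, SE 0.08, adjusted p = 9.0e-05), and its level in hira-1(-) barely differed by stage (log2 change -0.01). The gene his-71 (F45E1.6) was at 63.9 and 67.9, 74.5 and 75.7, 22.1 and 19.1, and 35.8 and 37.6 CPM, with a larger effect in adults (interaction 0.65, SE 0.10, adjusted p = 1.4e-04). The gene his-74 (W05B10.1) was higher in hira-1(-) at L4 and lower in adults, at 64.3 and 62.0 against 100.5 and 94 CPM and at 182 and 186 against 155 and 160 (interaction -0.85, SE 0.07, adjusted p = 8.1e-07). The adult deficit of his-74 did not hold with library totals. For his-70 the interaction was -0.27 (adjusted p = 0.30).

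All 8 histone chaperone genes, with the mutated gene hira-1 counted among them, had a negative interaction (median -0.73), beside 29.7% of all genes. At L4 hira-1 was the 1 member lower in hira-1(-), and the other 7 were higher. The ASF1 gene asfl-1 (C03D6.5) was at 15.5 and 15.5 CPM in N2 L4, 30.7 and 31.4 in hira-1(-) L4, 64.1 and 67.2 in N2 adults, and 71.3 and 69.9 in hira-1(-) adults (interaction -0.90, SE 0.08, adjusted p = 2.0e-06). The smallest was that of the ATRX gene xnp-1 (B0041.7; -0.42, SE 0.08, adjusted p = 4.5e-04). Reversals of rba-1 and chaf-2, which encode CAF-1 subunits, were called with TMM, and the count of reversed chaperone genes was 0 with library totals and 5 with RLE. The chaperone median was close to that of the cell cycle list (-0.75).

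Outside the lists, the named-gene rule picked the largest reversals. The chemoreceptor-family gene sri-40 (Y27F2A.3) was at 1.30 and 1.29 CPM in N2 L4, 3.18 and 2.68 in hira-1(-) L4, 57.3 and 60.8 in N2 adults, and 8.75 and 7.84 in hira-1(-) adults (interaction -4.01, SE 0.20, adjusted p = 5.0e-09). The gene fipr-1 (F23H12.8) was at 1.41 and 2.24, 4.26 and 3.67, 11.5 and 7.54, and 0.890 and 1.13 CPM (interaction -4.35, SE 0.40, adjusted p = 4.0e-06). In hira-1(-) adults sri-40 stood above its L4 libraries and fipr-1 below them. The sequence-named gene F22B5.5 had no count in hira-1(-) adults and was at least 18.9-fold lower there than in N2 adults, against a floor of 3 counts per library, although at L4 it was at 2.41 and 0.956 CPM in N2 and 7.27 and 8.09 in hira-1(-). In the other direction, the largest value among these was that of gtnt-17 (D1014.6; 9.15, SE 1.55, adjusted p = 4.2e-04), at 27.7 and 33.2 CPM in N2 L4, against 1.15 and 1.16 in hira-1(-) L4, with no count in N2 adults and 0.0371 and 0.151 CPM in hira-1(-) adults. Its adult values rest on 0 and 5 estimated counts over both libraries of a genotype, near or under the floor, so no fold is given for them. The gene phat-1 (C46H11.8), which encodes a pharyngeal gland toxin-like protein, was at 13.8 and 13.1 CPM in N2 L4, 2.98 and 2.51 in hira-1(-) L4, 0.0418 and 0.0718 in N2 adults and 0.593 and 0.716 in hira-1(-) adults. Its N2 adult level rests on 3 estimated counts over both libraries.

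In 1338 genes the effect had 1 direction at both stages and differed in size. In 451 hira-1(-) was higher at both stages and more so in adults, and in 434 more so at L4. In 264 it was lower at both stages and more so in adults, and in 189 more so at L4. On the linear CPM scale 356 of the 1338 had a difference of differences of the opposite sign. For the 2229 reversals the sign is the same on both scales by definition, because their stage effects have opposite signs. The cathepsin gene cpr-1 above is of the first kind, and so is the F-box gene fbxa-24 (F54D10.2), at 1.73 and 1.62 CPM in N2 L4, 6.29 and 7.20 in hira-1(-) L4, 0.960 and 0.789 in N2 adults, and 36.9 and 36.9 in hira-1(-) adults (interaction 3.39, SE 0.24, adjusted p = 1.6e-07). The most common class was none of these: 1829 genes were higher in hira-1(-) at L4, did not pass in adults and had a negative interaction, and 1139 did not pass at L4 and were higher in adults with a positive one. Another 1008 were lower in adults only and 710 lower at L4 only, each with the interaction passed. The interaction passed while neither stage effect did in 111 genes with a positive and 83 with a negative value. At the edge of the threshold, F25C8.1 lay just inside (interaction 0.65, adjusted p = 0.04996) and rpl-10L just outside (-0.23, adjusted p = 0.05001).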

How the data were processed

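RNA-seq of N2 and hira-1(-) animals at L4 and adult was analysed from the gene tables deposited by the authors. They hold expected counts, estimated counts that RSEM assigns to genes, and log2 FPKM values after adding 1, as deposited by the authors. The submitters' processing notes name RSEM 1.2.15, Bowtie 1.0.1, the build ce10 and SAMtools 0.1.19, with no role or order. Strand use in counting is not stated, and reads of antisense or overlapping genes may be mixed. Of 18 columns, 8 matched a sample's label (1 with a digit in place of a letter) and 10 were not used. Gene names come from a WBcel235 table that matched 44080 of 45461 rows; builds differ, so no coordinates are given.

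The estimated counts, after rounding, went into edgeR 4.0.16 (R 4.3.3) with TMM scaling, a minimum count of 10 (15 in total), a robust quasi-likelihood fit of 4 group means with 4 residual degrees of freedom, and Benjamini-Hochberg adjustment over 16770 genes at 0.05. Every adjusted p in the text comes from this test unless another is named. Each SE is the size of the log2 difference divided by the square root of the test's F statistic. The common biological coefficient of variation was 6.26%. No replicate pair agreed within counting noise (ratio of chi-square to its degrees of freedom 5.77 to 19.3), and all were kept as separate samples. Effective length was derived from the deposited counts and FPKM for 16103 genes with at least 20 counts. Floors of 3 counts per library cover counting error only. In simulated counts of 16655 genes, 100 genes per fold were changed, all with a mean above 2 CPM. Of these, 47% of 1.5-fold and 78% of 2-fold interactions were recovered, with 17 unchanged genes called. Far more genes were called in the data than were changed here, so these values need not carry over to the data.

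The members and the gene lists were chosen with earlier results of these data known, and the direction of the sperm, oocyte, collagen and hedgehog lists at each stage was among them, so their counts are not independent evidence. No list test was run. The named-gene rule took, per direction of reversal, the 8 largest interactions with a 3- or 4-letter name, at least 5 CPM in the highest group and separate libraries, and 2 with a sequence name. It added the 4 largest interactions per direction over all genes and over genes with 1 direction at both stages, up to 3 per list with the smallest p, the H3.3 and chaperone genes, the genes beside the threshold and the 3 most abundant per direction. Genes named outside it were chosen after their values were seen: fog-3, perm-2, dpy-13, col-19, col-98, col-143, grd-3, lin-42, myo-3, mlc-1 and unc-54 with values by library, rol-6, bli-1 and sqt-3 with an interaction, and those named as exceptions, as reversed or as positive members of a list. Alternatives were RLE scaling, library totals, 2 other filters, DESeq2 1.42.0, limma 3.58.1 on log2 FPKM, a replicate block, a 1.5-fold minimum (glmTreat), removal of ribosomal RNA, each stage fitted alone and leaving out each library.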

Additional observations from a re-analysis of the deposited data

Results flagged for a closer look

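The genotype effect differed between L4 and adults for 3467 genes with a positive and 4980 with a negative interaction, each by its own test of the difference. Among them, 1362 were higher in hira-1(-) at L4 and lower in adults, and 867 were lower at L4 and higher in adults. Among reversed genes with counts in every group, 5 CPM in the highest and separate libraries, the largest downward interaction was that of ent-5 (-4.79). It was at 0.216 and 0 CPM in N2 L4, next to 2.33 and 2.38 in hira-1(-) L4, and at 29.5 and 29.2 in N2 adults, next to 23.4 and 20.5 in hira-1(-) adults. Its reversal was not called with library totals (adult difference -0.21, adjusted p = 0.21) or with the 1.5-fold minimum. The largest upward interaction by the same criteria was that of abu-1 (7.20), with 31.1 and 16.9, 12.5 and 9.25, 0 and 0.287, and 10.8 and 10.3 CPM in the same groups, and its reversal was not called with RLE, library totals, DESeq2 or the 1.5-fold minimum. The gene gtnt-17, with an interaction of 9.15, has a group at 0 and is described above.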

How the results depend on the processing

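The counts of interaction calls, of both reversals and of genotype calls at each stage stayed within 1.5 times their reported value under RLE scaling, DESeq2, the 2 other filters, removal of ribosomal RNA genes and each stage fitted alone (reversals and stage effects only), and when any 1 library was left out. A 1.5-fold minimum lowered them by its construction, to 3287 interactions (1653 positive, 1634 negative), 169 and 244 reversals, and 3170 and 3443 genotype calls at L4 and in adults. The same minimum with library totals, added after seeing the data, gave 3262 (1816 and 1446), 160 and 218, and 3601 and 3887. Genes higher at L4 and lower in adults numbered 721 with library totals and 697 with limma on log2 FPKM; the cause was not tested beyond the shift of the centre given above. Leaving out 1 library gave 7149 to 8092 interactions (2751 to 3848 positive, 3959 to 4485 negative), 952 to 1162 and 661 to 1083 reversals, and 7906 to 9762 and 7424 to 9891 genotype calls; without N2 L4 replicate 1 or 2 or N2 adult replicate 1, 49.8%, 50.0% and 50.3% of L4 calls were higher in place of 61.1%. Of 2329 values of 137 named genes under alternatives, 2240 kept direction and side of the threshold, 82 in 34 genes lost the call and 3 turned direction, all with limma on log2 FPKM and in genes with a group at 0: oac-42 (-0.30, adjusted p = 0.19), skr-7 (0.10, 0.75) and vet-6 (0.81, 0.0039). Without N2 adult replicate 2 the interactions of abu-1 and clec-229 moved from 7.20 and 5.69 to 12.33 and 8.08, and without N2 L4 replicate 1 that of ent-5 moved from -4.79 to -9.45; these genes have under 0.3 CPM in that group.

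Replicate numbers occur in every group. Same-numbered libraries did not deviate together (correlations of deviations across genes -0.0029 to 0.066), so the numbers were not used as pairs. With a replicate block 3478 interactions were positive and 4983 negative, with 1331 and 870 reversals. Depth limits calls in low genes: the median SE of the interaction, with very large values left out, was 0.54 in the lowest set by level and 0.09 in the highest.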

Other observations

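Some genes that the named-gene rule took for the size or the small p of their interaction are not yet described. They were chosen for these values, so their values are a description of single genes. The BTB-domain gene btb-6 (F45C12.7) was at 0 in both libraries of N2 L4 and at 0.677 and 0.925 CPM in hira-1(-) L4, at least 7.34-fold higher than a floor of 3 counts per library, with 11.7 and 12.3 CPM in N2 adults and 10.5 and 9.23 in hira-1(-) adults. The phosphatase-family gene cdc-25.3 (ZK637.11) was at 0 and 0.0735 CPM in N2 L4, 2.74 and 2.71 in hira-1(-) L4, 41.1 and 39.0 in N2 adults and 41.95 and 37.58 in hira-1(-) adults. The zinc-finger gene lsy-27 (F47H4.1) was at 0.144 and 0.110, 2.47 and 3.40, 20.3 and 18.8, and 25.2 and 23.4 CPM in the same groups (interaction -4.17, SE 0.37, adjusted p = 1.1e-06). In the other direction the hedgehog-related gene grd-11 (K02E2.2) did not differ past the threshold at L4 (6.88 and 7.39 CPM in N2, 7.88 and 7.63 in hira-1(-); adjusted p = 0.48) and had no count in N2 adults, where hira-1(-) held 0.890 and 1.06 CPM, at least 8.35-fold higher than the floor. The nuclear hormone receptor gene nhr-74 (C27C7.3) was at 5.15 and 7.76 CPM in N2 L4, 6.56 and 6.47 in hira-1(-) L4, 6.60 and 4.74 in N2 adults and 0.519 and 0.678 in hira-1(-) adults (interaction -3.24, SE 0.37, adjusted p = 1.6e-05), so that its low level was seen in 1 group of the 4.

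By annotated class, 52.1% of 15699 protein-coding genes and 22.5% of 659 pseudogenes passed the interaction test.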
